A study of Drosophila melanogaster with 25 samples.

Results

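Of 17087 gene rows in the deposited count table, 7 enzyme and receptor genes of tyramine and octopamine are described here: *Tdc2*, *Tbh*, *Oamb*, *Octbeta1R*, *Octbeta2R*, *Octbeta3R* and *Oct-TyrR*. They were taken by symbol, as genes of this pathway, and the rule uses no threshold on their values. *Tdc1*, *TyrR*, *TyrRII* and *Octalpha2R* are related genes outside the 7. The table counts transcripts by unique molecular identifier (UMI) in single cells from adult *Drosophila* brains kept in a 12:12 light:dark cycle. The CEL-seq2 part, a plate method, came from a line in which TH-GAL4 drives EGFP, with 23 libraries at 6 times of day (ZT02, ZT06, ZT10, ZT14, ZT18 and ZT22; 4 libraries each, 3 at ZT10). The 10X Chromium part came from a line that carries TH-GAL4 and Clk856-GAL4 together, so dopaminergic neurons (DANs) and clock neurons were sorted in the same tube, with 1 library at ZT14 and 1 at ZT02. All groups held equal numbers of males and females, brains were dissected with inhibitors of neuronal activity in the saline, and GFP-positive, Hoechst-positive cells were sorted. A GAL4 driver labels only part of each population.

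In insects octopamine and tyramine take much of the place that noradrenaline and adrenaline have in vertebrates, and they act on arousal, feeding and sleep. Tyrosine is decarboxylated to tyramine, and tyramine is then hydroxylated to octopamine, so a cell needs both enzymes to make octopamine. *Tdc2* encodes the tyrosine decarboxylase of neurons and *Tbh* the tyramine beta-hydroxylase. *Oamb* encodes an alpha1-like octopamine receptor that raises calcium, *Octbeta1R*, *Octbeta2R* and *Octbeta3R* encode beta-adrenergic-like receptors that raise cAMP, and *Oct-TyrR* encodes a receptor that prefers tyramine.

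In the BDGP6.54 annotation on the dm6 assembly, *Tdc2* lies on 2R at 6684745 to 6689974 (minus strand), *Tbh* on X at 7995697 to 8027394 (plus) and *Oct-TyrR* on 3L at 22035003 to 22065279 (plus). The other receptors are on 3R. *Oamb* spans 20689018 to 20714577 (minus), *Octbeta1R* 22497215 to 22520078 (plus), *Octbeta3R* 12511570 to 12548229 (minus) and *Octbeta2R*, its neighbour, 12550625 to 12595725 (minus). Exons of *Octbeta2R* overlap 3 other annotated entries on the same strand, so its count can hold their reads.

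Cells were placed by UMIs of other genes. A 10X cell with at least 3 UMIs of *tim*, *vri*, *Clk* and *cry* and at most 1 of *Vmat* was called a clock cell, and a cell with at least 5 *Vmat* and at least 1 *DAT* UMIs a DAN. This gave 1026 clock cells (517 at ZT14 and 509 at ZT02) and 2196 DANs (891 at ZT14 and 1305 at ZT02) among 5184 10X cells, and 1155 DANs among 1516 CEL-seq2 cells. The medians were 9005 UMIs per clock cell and 7090.5 per DAN in 10X, and 11327 per CEL-seq2 DAN; CEL-seq2 libraries held 548486 to 1197517 UMIs. No cell barcode was shared by the 10X libraries. As a measure of free RNA in the droplets, *ple*, which encodes the tyrosine hydroxylase of DANs, gave a UMI in 19.4% of clock cells (0.607 transcripts per 10000 UMIs, TP10K, as the mean of the libraries), and *tim* gave one in 2.96% of DANs (0.103 TP10K). The classes also differed in 6 glial marker genes, none of them at 0 in either class, whose sum was 2.30 TP10K in clock cells (1.21 and 3.17 in the libraries) against 0.324 TP10K in DANs (0.267 and 0.373).

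Clock cells carried more of the octopamine-making enzyme and less of most of the other genes than DANs. *Tbh* was the only one of the 7 that was higher in clock cells, where 68.8% of cells had a UMI, against 17.4% of DANs. *Tdc2*, *Octbeta2R*, *Octbeta3R* and *Oct-TyrR* were lower in clock cells. *Oamb* and *Octbeta1R* did not pass the test.

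*Tbh* stood at 2.43 TP10K at ZT14 and 4.11 TP10K at ZT02 in clock cells, against 0.660 and 0.507 TP10K in DANs of the same libraries. The clock cells of either library lay above the DANs of both, and the difference was 2.54 ± 0.36 on the log2 scale (SE; adjusted p = 0.0339, edgeR's quasi-likelihood test on summed counts of 2 classes in 2 libraries, Benjamini-Hochberg over 7747 genes). Among the 940 clock cells and 1720 DANs that held at least 3000 UMIs, thinned to that number (86 and 476 shallower cells were left out), 51.5% of clock cells and 11.0% of DANs still had a *Tbh* UMI.

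*Tdc2* had 0.288 TP10K at ZT14 and 0.314 at ZT02 in clock cells, against 0.827 and 0.806 TP10K in DANs (log2 difference −1.35 ± 0.11, adjusted p = 0.0224). Its share of clock cells with a UMI, 8.77%, was below that of *ple*, although *ple* differed between the classes by far more (log2 −6.56). Of the 294 *Tdc2* UMIs in clock cells, 123, 66 and 50 lay in 3 clusters described further on. The class rule itself bears on *Tdc2*, since it admits clock cells only with at most 1 *Vmat* UMI. Of the 65 10X cells with at least 10 *Tdc2* UMIs, 52 had a *Vmat* UMI, 42 passed the DAN rule and 7 the clock rule. The part of the rule in the *Tdc2* difference was not tested.

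*Oct-TyrR* had 0.679 TP10K at ZT14 and 1.12 TP10K at ZT02 in clock cells, against 2.60 and 2.94 TP10K in DANs, the largest receptor difference in this comparison (log2 −1.57 ± 0.19, adjusted p = 0.0295). *Octbeta2R* had 1.22 and 1.36 TP10K in clock cells against 3.35 and 2.74 TP10K in DANs (−1.14 ± 0.17, adjusted p = 0.0355). *Octbeta3R* had 0.469 and 0.371 TP10K in clock cells against 0.843 and 0.699 TP10K in DANs (−0.79 ± 0.09, adjusted p = 0.0290). For these 3 receptors the clock cells of both libraries lay below the DANs of both.

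*Oamb* differed by −0.78 ± 0.54 (adjusted p = 0.366) and *Octbeta1R* by −0.64 ± 0.23 (adjusted p = 0.138). So 1 of 7 genes was called higher, with 11.0% of 7741 tested genes called higher (genes that placed the cells left out), and 4 of 7 were called lower, with 7.11% of those genes called lower; the median difference over all genes was 0.01. The fit has 1 residual degree of freedom. The call of *Octbeta3R* was lost with DESeq2 (adjusted p = 0.0826) and with thinned cells (0.0568), and that of *Octbeta2R* with equal weight for each cell (0.0699). Without cells that held a UMI of the glial genes *repo*, *alrm* or *Gs2* or the photoreceptor gene *ninaE* all 5 calls held. Cells with UMIs of the other glial markers stayed in, and *ninaE* had no UMI in either class.

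**Figure D1:**
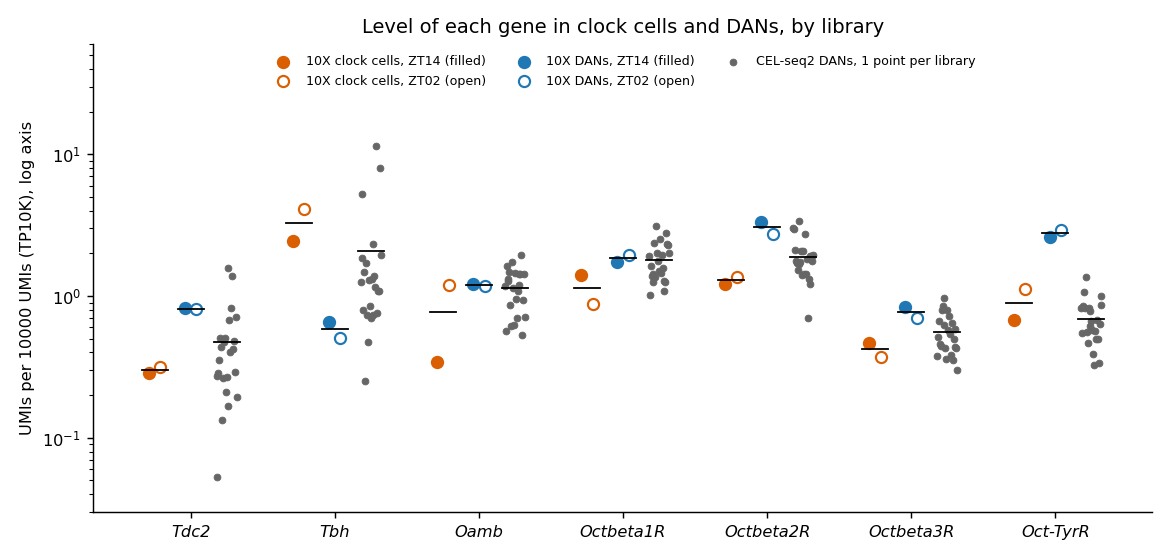
Level of each of the 7 genes (TP10K, log axis) in 10X clock cells, 10X DANs and CEL-seq2 DANs, with a point for each library (10X: filled at ZT14, open at ZT02) and a bar for the mean. *Tbh* is the only gene whose clock cell points lie above all 10X DAN points, while the points of *Tdc2*, *Octbeta2R*, *Octbeta3R* and *Oct-TyrR* in clock cells lie below them.

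The methods gave DANs different levels of some of the genes. *Oct-TyrR* had 2.60 and 2.94 TP10K in the 10X DANs, and 0.326, 0.634 and 1.36 TP10K as lowest, median and highest of the 23 CEL-seq2 libraries, which do not overlap. *Tbh* had 0.660 and 0.507 TP10K in the 10X DANs and 0.253, 1.2 and 11.5 TP10K in the CEL-seq2 DANs. Method and fly line cannot be told apart here, and each test was run within 1 method.

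Cells also differed in how many of the 5 receptor genes they held. Among the same thinned cells, clock cells had a UMI of 0.912 receptors on average and DANs of 1.61. No UMI of these 5 genes was seen in 39.7% of clock cells, against 13.4% of DANs. At least 3 different receptors were seen in 6.17% of clock cells and 17.4% of DANs. CEL-seq2 DANs at the same depth had a mean of 1.18, with 26.0% at 0 receptors. The 10X classes also differed in the neuron markers *elav* and *nSyb*, whose sum was 27.9 TP10K in clock cells and 44.0 TP10K in DANs. The part of such a difference in the receptor counts was not tested.

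Among the other genes of amine metabolism in a list of 10, 6 could be tested here beyond the genes used to place the cells. *AANAT1*, an acetyltransferase that inactivates amines, was higher in clock cells (log2 2.18, adjusted p = 0.0202), and *ple* and *Ddc*, the enzymes of dopamine synthesis, were lower (−6.56 and −1.19). *TyrR*, another tyramine receptor, was at −1.16 (adjusted p = 0.0993) and *Octalpha2R*, an alpha2-like octopamine receptor, at 0.05 (adjusted p = 0.833). Of 10 tested genes of G protein and cAMP signalling 1 was higher and 1 was lower, shares near those of all genes (11.0% and 7.11%). These were *Galphai*, at 0.0793 TP10K in clock cells against 0.00594 in DANs, levels below that of *tim* in DANs, and the phospholipase gene *Plc21C* (−0.94, adjusted p = 0.0414).

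The levels within each class were uneven. Cells were matched by correlation to the published mean profiles of the clusters, with the 7 genes held out of the matching. There were 19 clock and 24 DAN clusters, and 96.1% of clock cells, 88.8% of 10X DANs and 75.3% of CEL-seq2 DANs found one. The neuropeptide genes that give clusters their names were high in them: *CNMa* was at 149 TP10K in cluster 32 (DN1p_CNMa), *ITP* at 1992 in cluster 18 (LN_ITP) and *Trissin* at 1084 in cluster 10 (LNd_Trissin). Of the 7 genes, 6 were among the variable genes from which the clusters had first been built, so the levels by cluster are descriptions, without tests.

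*Tdc2* was nearly confined to a few clusters. In DANs it reached 6.53 TP10K in cluster 17, with a UMI in 89.2% of 157 cells and similar levels in both libraries (6.76 TP10K at ZT14 and 6.30 at ZT02). Cluster 21 followed with 2.71 TP10K, and the median over 24 DAN clusters was 0.0732. Cluster 17 also held *Ms*, the neuropeptide myosuppressin, at 194 TP10K and *ple* at 48.1 TP10K. Among clock clusters, *Tdc2* reached 2.32 TP10K in cluster 32 (DN1p_CNMa), 2.06 in cluster 6 (LNd_NPF, 57.6% of cells) and 1.63 in cluster 18 (LN_ITP). These 3 clock clusters alone were at or above 1 TP10K, against a median of 0.0585 over 19. Cluster 6 held *Tdc2* in both libraries (2.15 TP10K at ZT14 and 1.92 at ZT02). The other levels came from 1 library each: cluster 32 had no UMI in 13 cells at ZT14, which allows up to 0.207 TP10K, against 4.73 TP10K in 10 cells at ZT02, and cluster 18 had 4.51 TP10K in 9 cells at ZT14 against 1 UMI in 14 cells at ZT02.

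*Tbh* had a different map. It was at or above 1 TP10K in 16 of 19 clock clusters and in 5 of 24 DAN clusters. The highest clock levels were 8.22 TP10K in cluster 10 (LNd_Trissin, every one of 28 cells with a UMI), 6.67 in cluster 25 (DN1p) and 5.61 in cluster 16 (DN1p). The clock clusters without it were few: no *Tbh* UMI was counted in the 77 cells of cluster 2, which allows a level of up to 0.0572 TP10K, and cluster 12 (LPN) was at 0.0754 TP10K. Cluster 2 also had 0 UMIs of *Tdc2*, *Oamb* and *Octbeta3R*, and 1 each of *Octbeta1R* and *Oct-TyrR*, so the lack was not particular to *Tbh*. *Octbeta2R* was the exception, with at least 10 UMIs in cluster 2. Among DANs, cluster 37 held 7.75 TP10K (90.5% of 42 cells) and the next, cluster 9, held 1.75 TP10K. Cluster 37 had little *Tdc2* (0.0713 TP10K), and cluster 17, the *Tdc2* cluster, is a different one.

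Cells with both enzymes were few, although in clock cells they outnumbered those with *Tdc2* alone. With at least 3 UMIs as the limit, 24 clock cells held both enzymes, 16 held *Tdc2* alone and 423 (41.2%) held *Tbh* alone. Among 10X DANs the counts were 4 cells with both, 153 with *Tdc2* alone and 100 with *Tbh* alone. At the same limit 43.6% of all clock cells and 4.74% of all 10X DANs held *Tbh*, so the counts with both also reflect how common *Tbh* was in each class. Of the 65 10X cells with at least 10 *Tdc2* UMIs, 17 had any *Tbh* UMI, while 38 had *Ms*. In CEL-seq2 the shares differed: of 18 such cells, 13 had a *Tbh* UMI and 9 had *Ms*. The shares over all DANs differed between the methods too. A *Tbh* UMI was seen in 592 of 1155 CEL-seq2 DANs against 383 of 2196 10X DANs. *Ms* was seen in 42.4% of 1153 CEL-seq2 DANs, which leave out the 2 cells with most *Tbh*. CEL-seq2 DANs had 23 cells with both, 48 with *Tdc2* alone and 217 with *Tbh* alone.

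Receptor levels marked other clusters. *Oct-TyrR* was at or above 1 TP10K in 4 of 19 clock clusters and 19 of 24 DAN clusters. Among clock clusters DN1a (cluster 3) stood alone with 7.67 TP10K and a UMI in 95.7% of 70 cells, and the next, cluster 11, had 1.79. In DANs cluster 8 reached 8.35 TP10K, cluster 22 reached 7.68 and cluster 20 reached 5.79. *Octbeta2R* was highest in DAN cluster 22 (12.6 TP10K) and, among clock clusters, in cluster 11 (DN1p, 7.92) and cluster 29 (DN2, 7.24). DN2 was also the highest clock cluster for *Octbeta1R* (5.19 TP10K), next to cluster 5 (DN1p, 5.16).

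*Octbeta1R* was at 6.47 TP10K in DAN cluster 23, and at 4.12 and 3.47 TP10K in clusters 21 and 17, the clusters with most *Tdc2*. *Oamb* was flatter: its highest levels were 3.42 TP10K in DAN cluster 20 and 1.65 TP10K in clock cluster 3 (DN1a), where the clock value pools libraries that differ. The highest clock cluster for *Oamb* was cluster 34 (DN3, 1.81 TP10K) at ZT14 and cluster 6 (LNd_NPF, 3.83 TP10K) at ZT02. *Octbeta3R* passed 1 TP10K in 3 of 19 clock and 6 of 24 DAN clusters, with maxima of 1.71 TP10K in clock cluster 14 (DN3) and 3.48 TP10K in DAN cluster 41.

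**Figure D2:**
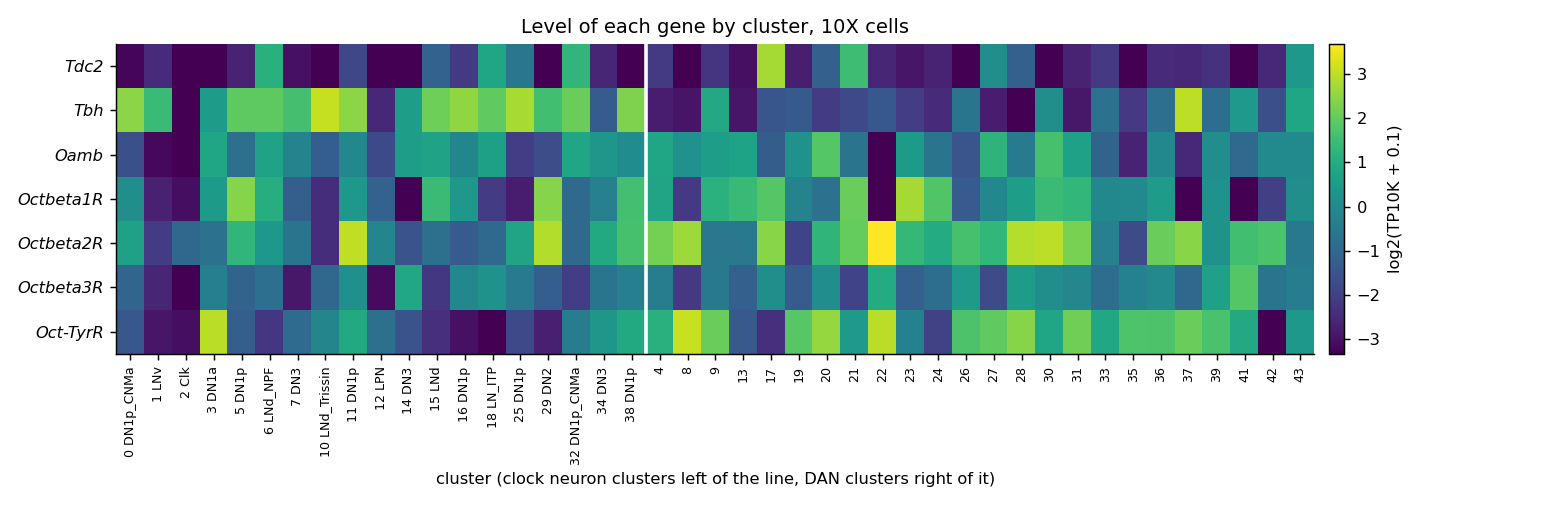
Level of the 7 genes (colour, log2 of TP10K plus 0.1) in the 19 clock and 24 DAN clusters of the 10X cells, 1 row per gene and 1 column per cluster. *Tbh* fills 16 of 19 clock columns, *Oct-TyrR* fills DAN columns and DN1a, and *Tdc2* fills a few columns of each kind.

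The cluster pattern of DANs was seen again in the CEL-seq2 cells, which come from another line and method. Over the 24 DAN clusters Pearson's r of the log2 levels in CEL-seq2 and 10X ran between 0.75 (*Oamb*) and 0.86 (*Octbeta3R*); the points share the reference used for matching, and no p is given. The same cluster was highest with both methods for *Tdc2* (3.87 TP10K in CEL-seq2 cluster 17), *Tbh* (10.7 in cluster 37), *Oamb* (3.95 in cluster 20), *Octbeta1R* (7.51 in cluster 23) and *Octbeta2R*. The highest cluster differed for *Octbeta3R* and *Oct-TyrR*. For clock clusters the only repeat is that between the 10X libraries, which also differ in time. Over 16 clusters with at least 10 cells in each, r between ZT14 and ZT02 was 0.94 for *Tbh*, 0.87 for *Oct-TyrR*, 0.50 for *Tdc2* and 0.40 for *Oamb*, and only *Oct-TyrR* had the same highest cluster (DN1a) in both.

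Between the 10X libraries, the clock cells at ZT14 had less *Oamb*, *Tbh* and *Oct-TyrR* and more *Octbeta1R* than those at ZT02. Each time had 1 library, so there is no replicate check and no p; the intervals are exact Poisson intervals of 95% that cover counting error only. Depth cannot be told apart from time, and the clock cells held 5416617 UMIs at ZT14 against 4396632 at ZT02. The clock cells were placed by UMIs of *tim*, *vri*, *Clk* and *cry*, and the paper reports that *tim* mRNA cycles in clock clusters. The rule can therefore admit different cells at ZT14 and ZT02. Cluster 2, for example, held 59 matched clock cells at ZT14 against 18 at ZT02. The part of such a difference in the ratios of clock cells was not tested.

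*Oamb* had 186 UMIs in clock cells at ZT14 (0.343 TP10K, 19.1% of cells) against 524 at ZT02 (1.19 TP10K, 47.0% of cells), a ratio of 0.288 [0.242 to 0.341]. It was lower at ZT14 in 11 of the 12 clock clusters with at least 10 *Oamb* UMIs. Cluster 6 (LNd_NPF) had 0.134 TP10K at ZT14 against 3.83 at ZT02, cluster 16 (DN1p) 0.0413 against 2.08, cluster 7 (DN3) 0.0639 against 1.76 and cluster 3 (DN1a) 0.785 against 2.76. With equal weight for each of 16 clusters the ratio was 0.342. In DANs *Oamb* was 1.21 TP10K at ZT14 and 1.17 at ZT02, a ratio of 1.03 [0.947 to 1.13].

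*Tbh* in clock cells was 1314 UMIs at ZT14 against 1809 at ZT02 (ratio 0.590 [0.549 to 0.633]) and was lower in 11 of 13 clusters. *Oct-TyrR* had a ratio of 0.607 [0.529 to 0.696] and was lower in 8 of 9 clusters. *Octbeta1R* went the other way, with 1.40 TP10K at ZT14 against 0.882 at ZT02 (ratio 1.59 [1.40 to 1.80], higher in 10 of 12 clusters). *Octbeta3R* stood at 1.26 [1.03 to 1.55], and the intervals of *Octbeta2R* (0.899 [0.803 to 1.01]) and *Tdc2* (0.918 [0.725 to 1.16]) included 1. With equal weight for each of the 16 clusters, which leave out cluster 18, the *Tdc2* ratio was 0.399, with 2 clusters lower and 2 higher at ZT14.

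In DANs the ratios ran between 0.884 for *Oct-TyrR* and 1.30 for *Tbh*. *Octbeta2R* had 3.35 TP10K at ZT14 against 2.74 at ZT02 (ratio 1.22 [1.16 to 1.29]) and was higher in 17 of 19 clusters, while *Oct-TyrR* was lower in 16 of 18. The *Tbh* ratio was 1.03 once each of 19 clusters had equal weight, although *Tbh* was higher at ZT14 in 9 of 10 clusters. The lower one, cluster 26, had 1.29 TP10K at ZT02, from 24 UMIs in 4.17% of its 24 cells. With stricter matching to clusters that level was 0. CEL-seq2 gives 4 libraries at each of these times, described next.

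**Figure D3:**
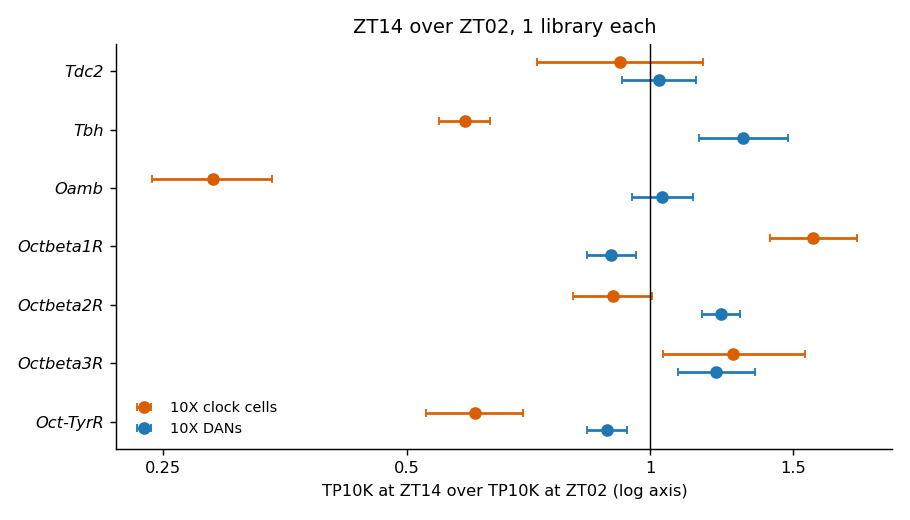
Ratio of the level at ZT14 to that at ZT02 (log axis) for each gene in 10X clock cells and 10X DANs, with exact Poisson intervals of 95% as bars. *Oamb* in clock cells lies lowest at 0.288 and *Octbeta1R* in clock cells highest at 1.59, while its DAN ratio is 0.895.

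In the CEL-seq2 libraries no gene of the 7 passed the test for a 24 h rhythm, in a fit with sine and cosine terms and the collection tag (0.122% of 5753 genes did, 7 in all). Sums over a library do not tell fewer cells with a transcript from less transcript per cell, and the labels do not say whether libraries of 1 time came from separate flies, so p-values measure the spread between these libraries. The plate method can make several libraries from the wells of 1 plate, so libraries of 1 time may share a plate and a sort. The share of DANs was 278 of 300 cells at ZT18 and 149 of 256 at ZT14, the extremes of the 6 times. Peak over trough was 2.0 for *Tbh* (log2; unadjusted p = 0.0182, adjusted p = 0.282), 1.31 for *Tdc2* (adjusted p = 0.561), 0.80 for *Oct-TyrR* (adjusted p = 0.339) and 0.25 to 0.58 for the other 4, with 0.42 as the median over all genes.

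Time points were next compared within pairs that share a collection tag. Between ZT14 and ZT02 none of the 7 was called (0 of 6039 genes were called higher and 0.0166% lower, with 376 genes at an unadjusted p under 0.05), and *Oamb* was at 0.651 to 1.14 TP10K in the 4 ZT14 libraries against 0.663 to 1.52 in the 4 ZT02 libraries, which overlap. Between ZT22 and ZT06 none was called either (0.182% of genes higher and 0.0166% lower, 480 at an unadjusted p under 0.05). Between ZT18 and ZT10 *Octbeta1R* alone was called, in the lower direction, with 3.74% of all genes called lower and 5.46% higher. *Octbeta2R* was at −0.59 (adjusted p = 0.188) and was called in 1 of 15 alternatives, without ZT18 library 13 (−0.87, adjusted p = 0.0306).

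*Octbeta1R* had 1.64, 1.04, 1.27 and 1.24 TP10K in the ZT18 libraries, against 3.11, 2.09 and 1.76 TP10K in the ZT10 libraries. The groups did not overlap, and the log2 difference was −0.82 ± 0.25 (adjusted p = 0.0408). Its call was lost in 8 of 15 alternatives (adjusted p between 0.00696 and 0.473), among them leaving out ZT10 library 17 (0.191) or 18 (0.0803) or ZT18 library 14 (0.119), 15 (0.0817) or 16 (0.0919). At ZT22, 4 h after ZT18 but under another collection tag, the mean of *Octbeta1R* was 2.29 ± 0.51 TP10K (SD, n = 4). Time and collection tag cannot be told apart between ZT18 and ZT22. The joint test of the 3 pairs gave an adjusted p of 0.10.

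**Figure D4:**
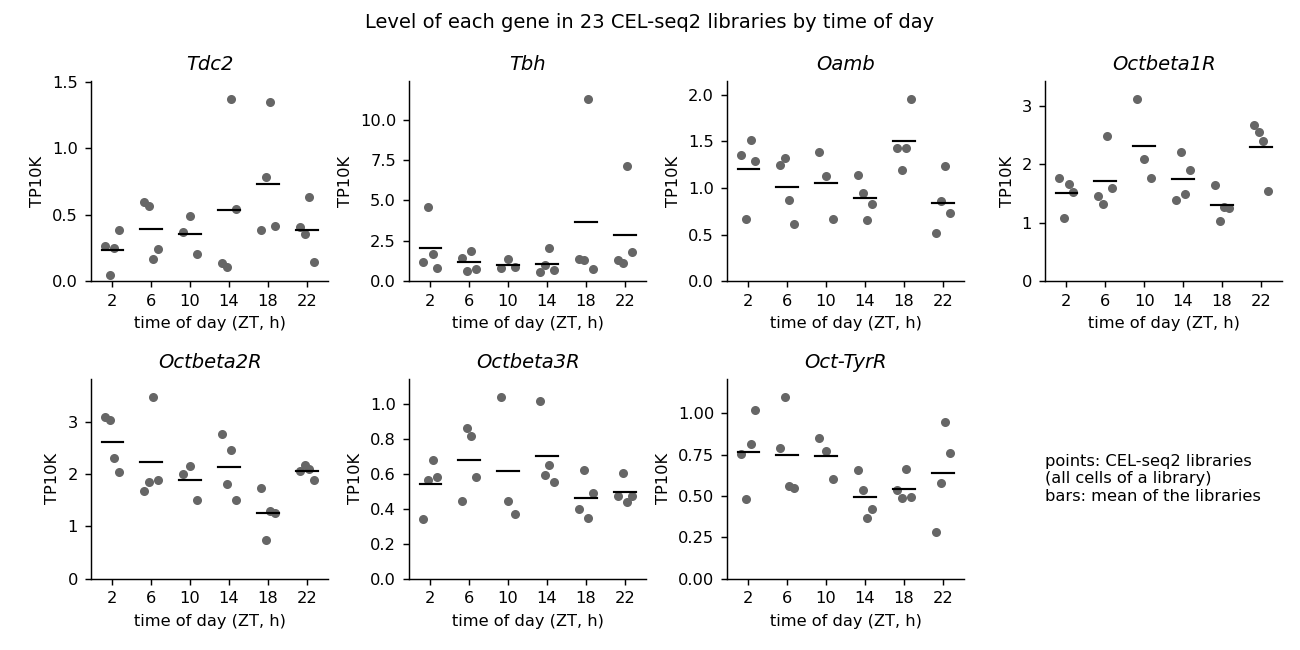
Level of each gene (TP10K, linear axes from 0) in the 23 CEL-seq2 libraries by time of day (ZT, h), with a point for each library and a bar for the mean. *Tbh* reaches 11.3 in a ZT18 library and 7.13 in a ZT22 library, and *Octbeta1R* is 1.04 to 1.64 at ZT18.

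*Tbh* had the widest range of the 7 over the libraries in TP10K, 0.587 to 11.3 with a median of 1.32, while highest over lowest was 19.2 for *Tbh* and 32.3 for *Tdc2*. Just 2 of 1516 CEL-seq2 cells held 1274 of 4032 *Tbh* UMIs (31.6%), and the next highest cell held 70. The first, in ZT18 library 15, had 798 *Tbh* UMIs (177 TP10K), 81 *Tdc2*, 1497 *Vmat*, 14 *DAT* and 31 *ple* UMIs among 45106. The second, in ZT22 library 15, had 476 *Tbh* (158 TP10K), 25 *Tdc2*, 1319 *Vmat*, 3 *DAT* and 9 *ple* UMIs among 30123.

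Both cells passed the UMI rule for DANs, and *tim*, *vri*, *Clk*, *cry*, *repo*, *SerT* and *Ms* were at 0 in both. The other 1153 CEL-seq2 DANs averaged 1.51 TP10K of *Tbh*, 94.4 of *Vmat*, 18.7 of *DAT* and 19.8 of *ple*. The 2 cells carried much more *Tbh* and *Vmat*, and less *DAT* and *ple*, than the other DANs on average. The cells were picked out after their values were seen.

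**Figure D5:**
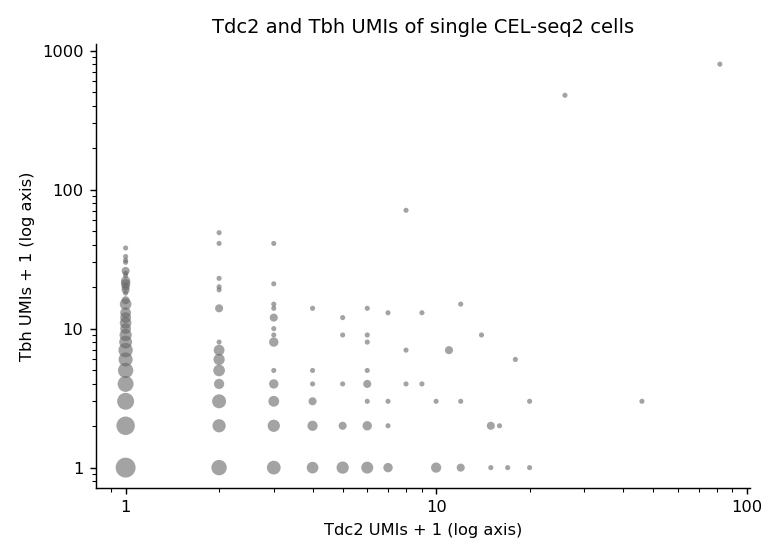
*Tbh* against *Tdc2* UMIs of the 1516 single CEL-seq2 cells (each plus 1, log axes), where a larger point stands for more cells with that pair of counts, on a log scale. Most cells lie at or near one of the axes, and the cells with 798 and 476 *Tbh* UMIs stand apart at the top right.

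The remaining 75 cells of ZT18 library 15 also stood high: 93.3% of them had a *Tbh* UMI, with a median of 4, and their sum was 3.76 TP10K. In ZT22 library 15, 74.6% of the other 67 cells had one, with a median of 1. A ZT02 library, number 2, was at 4.0 TP10K without its highest cell, which held 48 UMIs. The part of transfer between wells in these values was not tested. The *Tbh* difference between ZT18 and ZT10 was 1.81 ± 0.82 (log2, adjusted p = 0.171), 0.78 without the 2 cells and 0.13 without ZT18 library 15. That between ZT22 and ZT06 was 1.31, against 0.38 without the cells and 0.29 without ZT22 library 15. The rhythm amplitude of *Tbh* was 1.15 (adjusted p = 0.426) without the cells.

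Within the CEL-seq2 libraries DANs were also set against the 361 cells that missed the DAN rule, most of them still with *Vmat* (97.8% had a UMI). Only *Oct-TyrR* was called: DANs had the 0.326, 0.634 and 1.36 TP10K given before as lowest, median and highest, against 0, 0.361 and 0.963 in the other cells (log2 0.82 ± 0.24, adjusted p = 0.0202; 5.95% of 5696 genes were called higher and 3.60% lower). The ranges overlapped. The call was lost with DESeq2's size factors in edgeR (0.70, adjusted p = 0.0564) and with a stricter UMI rule, which left 30 other cells (1.05, adjusted p = 0.366). *Tdc2* was at 1.01 ± 0.38 (adjusted p = 0.0828), *Oamb* at 0.59 (adjusted p = 0.0622), *Octbeta2R* at −0.38 (0.146), and *Tbh*, *Octbeta1R* and *Octbeta3R* between −0.11 and 0.22. Calls were gained under alternatives. *Oamb* was called higher in 12 of 29 (adjusted p between 0.00494 and 0.233), *Tdc2* in 6 of 28 (between 0.00351 and 0.237), and *Octbeta2R* was called lower in 2 of 29, with DESeq2 at −0.53 (adjusted p = 0.0332).

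Other genes followed the cluster patterns of the 7 to a modest degree. Over the 43 clusters and among 3345 genes, the Pearson's r of log2 levels nearest to 1 was 0.79 for *Tbh* (with *Prosbeta3*), 0.71 for *Oct-TyrR* (*kcc*), 0.63 for *Octbeta3R* (*Nlg2*), 0.67 for *Octbeta2R* (*l(3)L1231*), 0.59 for *Oamb* (*CG13743*, with the dopamine receptor gene *Dop1R1* at 0.53), 0.54 for *Tdc2* (*alphaTub84B*, with *NPF* at 0.53) and 0.52 for *Octbeta1R* (*CG8910*). The clusters share 2 libraries and differ in depth, and no p is given.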

How the data were processed

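The authors deposited 1 table of UMI counts per gene and cell, raw and not normalized, from alignments to annotated exons of dm6, with zUMIs for CEL-seq2 and Cell Ranger for 10X; the submitters' processing notes list Cell Ranger 6.0.2 and bcl2fastq 2.20. The authors had already filtered cells and removed doublets, and no further doublet caller was run. Cells were assigned to libraries by the prefix of the column name; 2325 columns of cells from other samples were not used. The 91 spike-in entries (1.43% of CEL-seq2 counts) were left out. TP10K is a gene's UMIs over all UMIs, times 10000. UMIs were summed per library and class and tested with edgeR 4.0.16 (TMM, filterByExpr, glmQLFit and glmQLFTest; R 4.3.3) with Benjamini-Hochberg adjustment; a call needs an adjusted p under 0.05 and a fold of at least 1.25 (peak over trough of at least 1.5). In 10X the model held class and library. In CEL-seq2 it held class and library, or time of day (24 h sine and cosine) with the collection tag, or the 6 times. DESeq2 1.42.0, normalization, filter, thinning (3000 UMIs), UMI rules, cell subsets and left-out libraries were alternatives. Scripts were tested on simulated data. All 7 genes are named, with related genes from 2 lists of 10 and the 3 genes most like each member; the members and lists were chosen with earlier results of these data known. Clock and DAN clusters were rebuilt by correlation with the study's cluster means over 332 genes (r of at least 0.5, lead of 0.01).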

Additional observations from a re-analysis of the deposited data

Results flagged for a closer look

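Over the 35 groups of 4 CEL-seq2 libraries tested (a gene at a time point), 3 held a library far from the others, with a gap over 0.829 of the group's range; chance gives about 1 in 20. *Tbh* in ZT18 library 15 was at 11.3 TP10K (gap 0.943 of the range; the nearest library was at 1.36), and 1 cell held 798 of its 1172 UMIs. *Tbh* in ZT22 library 15 was at 7.13 TP10K (gap 0.885; nearest 1.83), and 1 cell held 476 of its 619 UMIs. *Octbeta2R* in ZT06 library 4 was at 3.47 TP10K (gap 0.887; nearest 1.88), with 296 of the 753 UMIs at that time.

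In 10X, ZT14 over ZT02 lay on opposite sides of 1 in the 2 classes, with both counting intervals clear of 1, for 2 genes. *Tbh* had a ratio of 0.590 in clock cells and 1.30 in DANs. *Octbeta1R* had 1.59 in clock cells and 0.895 in DANs. With equal weight for each cluster the DAN ratios were nearer to 1, at 1.03 for *Tbh* and 0.955 for *Octbeta1R*. At ZT14 *Tbh* was higher in 9 DAN clusters and lower in 1, and *Octbeta1R* was higher in 8 and lower in 9. The lower *Tbh* cluster, 26, held its 24 UMIs at ZT02 in 4.17% of 24 cells, and it weighs on the equal-weight ratio. The equal-weight ratios in clock cells were 0.682 and 1.57. *Oamb* (0.288 in clock cells and 1.03 in DANs), *Octbeta2R* (0.899 and 1.22) and *Tdc2* (0.918 and 1.03) also lay on opposite sides of 1, with at least 1 interval that included 1. With 1 library per time the difference between the classes was not tested.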

How the results depend on the processing

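The main counts of called genes were 1404 for clock cells over DANs and 546 for DANs over other CEL-seq2 cells (both with the genes that placed the cells), with 7 for time of day, 1 for ZT14 over ZT02, 12 for ZT22 over ZT06 and 556 for ZT18 over ZT10. Equal weight for cells gave 893 in the first. For DANs over other cells no filter gave 827, the stricter UMI rule 132 and thinning 286. For time of day DESeq2 gave 64, no filter 141, no collection tag 46, no ZT18 libraries 13, DANs only 1, cells with fewer than 3 *Tdc2* UMIs 17, the joint test of 3 pairs 329, and leaving out the libraries of the 2 *Tbh* cells 1 (chosen after seeing the data, as was leaving out those cells). For ZT14 over ZT02 DESeq2 gave 9 and no filter 35. For ZT22 over ZT06 DESeq2 gave 68, no filter 132, DANs only 0 and the 2 time points alone 31. For ZT18 over ZT10 the 2 time points alone gave 33. The cause was not tested.

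Leaving out 1 library at a time gave 476 to 684 calls for DANs over other cells, 2 to 32 for time of day, 1 to 2 for ZT14 over ZT02, 0 to 23 for ZT22 over ZT06 and 308 to 1018 for ZT18 over ZT10. Log2 values that changed sign lay between −0.090 and 0.079 for *Octbeta1R* in DANs over other cells, between −0.39 and 0.28 for *Tdc2*, −0.48 and 0.033 for *Oct-TyrR* and −0.22 and 0.18 for *Octbeta2R* in ZT22 over ZT06, and between −0.66 and 0.13 for *Octbeta3R* in ZT18 over ZT10. *Octbeta1R* in DANs over other cells (−0.03) was 0.074 without a filter, 0.62 with the stricter rule, 0.18 thinned and 0.00040 without the 2 cells; *Octbeta2R* was 0.0053 with the stricter rule, and *Tdc2* in ZT22 over ZT06 0.34 in DANs only.

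Library numbers did not pair libraries (8 pairs, r between −0.0809 and 0.0267). With the number as a replicate block calls were 42 for time of day, 0 for ZT14 over ZT02, 1 for ZT22 over ZT06 and 21 for ZT18 over ZT10, and with the replicate block signs changed for *Oamb* (0.88), *Octbeta2R* (0.36) and *Oct-TyrR* (0.31) in ZT14 over ZT02, *Octbeta1R* (−0.28) and *Octbeta3R* (0.31) in ZT22 over ZT06 and *Octbeta3R* (0.21) in ZT18 over ZT10. The block together with the collection tag could not be fitted. *Tbh* in ZT18 over ZT10 was called without a filter (1.80, adjusted p = 0.0418). Time in 10X rests on 1 library each. In DANs, transcripts under about 0.1 TP10K lie near the free RNA as measured by *tim*. In clock cells the free RNA as measured by *ple* was higher. The levels of *Tdc2* and *Octbeta3R* in clock cells of both libraries, and of *Oamb* at ZT14, lay below the mean level of *ple* there. In DANs, however, *ple* stood far above these genes, so its level in clock cells is not a floor for theirs. The free RNA of each of the genes themselves was not measured.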

Other observations

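*Octalpha2R*, an alpha2-like octopamine receptor gene outside the 7, averaged 33.6 ± 20.7 TP10K in the ZT18 libraries (SD, n = 4; 6.68 to 51.4), against 1.76 ± 0.40 TP10K in the ZT10 libraries (SD, n = 3), and 2.07 to 2.45 TP10K on average at the other 4 times. Every cell at ZT18 had a UMI of it, among them 22 cells that missed the DAN rule, against 61.4% at ZT10. With cells thinned to equal depth the share was 97.3% at ZT18 and 31.8% to 38.3% at the other times. The log2 difference between ZT18 and ZT10 was 4.20 ± 0.48 (adjusted p = 1.23e-05), where p measures the spread between these libraries. The ZT18 libraries may share a plate and a sort, and the part of this in the *Octalpha2R* difference was not tested. The 7 genes of the report held no change of that size between these times. *Octalpha2R* lies on 3R at 18799280 to 18849224. In 10X it was highest in clock cluster 14 (DN3, 20.0 TP10K) and, among DANs, in cluster 26 (15.7 TP10K).

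Over the 23 CEL-seq2 libraries and among 4001 genes, the levels most like those of the 7 were *Glut4EF* for *Octbeta2R* (Pearson's r 0.80), *Dyrk2* for *Octbeta1R* (0.74) and *Prosalpha7* for *Oamb* (0.70). The libraries share collection tags and differ in depth, and no p is given.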
